A study of Mus musculus with 12 samples.

Results

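The 8 protein-coding mRNAs described here, from Sp3, Tbx3, Nfkbiz, Mmd, Ap3s1, Bola3, Clec2d and Klk1b5, were less abundant in the polysome pool than in the non-translating pool of neonatal mouse testis. They were chosen by that ratio in these same arrays, so their ratios are given as a description and carry no test. Their members are the probe sets that carry the gene's symbol alone in the platform annotation. The array names 18194 genes in that way, and the 8 genes hold 19 probe sets, of which 14 were bright enough to enter the tests. Sp3, Ap3s1 and Clec2d have 1 probe set each, and the other 5 genes have several. On the brightest probe set of each gene the polysome signal was 3.24 to 11.4-fold lower at 1 day post partum (dpp) and 3.87 to 6.85-fold lower at 4 dpp. The 3.24-fold value is that of Klk1b5, whose polysome signals all lay below the brightness needed to enter the tests. With every value raised to that level, Klk1b5 was 2.03-fold lower at 1 dpp and 2.17-fold lower at 4 dpp. The Sp3 pools overlapped at 4 dpp. In the 4 genes with a second probe set that entered the tests, that second probe set did not show the low ratio to the same degree.

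An mRNA that is being translated by many ribosomes sediments deep into a sucrose gradient, whereas free ribonucleoprotein particles and single ribosomal subunits stay near the top. The signal in the heavy fractions relative to that in the light ones is therefore used as a measure of ribosome loading. In the neonatal testis, germ cells and the somatic cells around them pass through rapid changes in the first days after birth, and stored mRNAs are a known feature of germ cells.

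Testes of CD-1 mice were taken at 1 dpp and at 4 dpp, with no genetic change or treatment of the animals in the labels. The tissue was washed with cycloheximide, which holds ribosomes on mRNA, and cytoplasmic extracts were spun through sucrose gradients. The non-translating pool joined gradient fractions 1 to 3 and the polysome pool joined fractions 7 to 13, the heavy polysomes, so fractions 4 to 6 and 14 were in neither. Each pool at each age was hybridised to 3 Affymetrix Mouse Genome 430 2.0 arrays, 12 arrays in 4 groups. The labels call the arrays biological replicates without saying which animals or how many testes went into each, so a p-value here covers only the spread among these arrays, which may be technical. A probe set is a group of short probes whose combined brightness is the signal, on a linear scale with no unit. Equal amounts of RNA were labelled for each array, so a ratio of the pools is relative to the other mRNAs, and the share of an mRNA that was on polysomes cannot be had from it. In whole testis, fewer cells of a type and less RNA per cell cannot be told apart. Ratios below are differences of mean log2(signal + 1), polysome minus non-translating, and each fold is that difference written on the linear scale.

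The median signal of the arrays ran from 22.4 to 26.1, and a probe set entered the tests when its mean log2 signal was at least 4.12, which corresponds to a signal of 16.4. The signal of 12 spike-in control probe sets averaged 677 and 467 on replicates 1 and 3 of the 4 dpp polysome pool and 1564 on replicate 3 of the 1 dpp polysome pool, against 2927 to 6620 on the other 9 arrays. These 3 arrays of low spike signal are all polysome arrays, and some member values are also given without them. Not every member value that moves without them is listed. The 1 dpp ratio of Bola3 1458384_at, for example, was -0.23 with all arrays and -0.027 without 1 dpp polysome replicate 3. The ratio of 3′ to 5′ Actb signal, a sign of RNA quality, was 16.1 to 32.8 on the 1 dpp polysome arrays and 4.48 to 6.78 on the 4 dpp polysome arrays. On the non-translating arrays it was 7.07 to 14.5, except for 84.1 on 4 dpp replicate 1, and its part in the member values was not tested. The testis markers were present: all 7 Sertoli cell, all 7 germ cell, all 4 Leydig cell, all 5 peritubular and mesenchymal and all 4 macrophage markers with a probe set lay above the filter. Among endothelial markers 2 of 4 did so, among lymphocyte and natural killer cell markers 2 of 4, and among erythroid markers 1 of 2. The Sertoli cell marker Clu, for example, had group means from 3955 to 14585, and the natural killer cell receptor gene Ncr1 had group means from 8.92 to 9.64, below the filter.

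Sp3 encodes a zinc finger transcription factor that binds GC-rich promoter elements and is closely related to Sp1. Its only probe set, 1431804_a_at, had signals of 1017, 383 and 1219 in the non-translating pool at 1 dpp and 50.0, 107 and 57.4 in the polysome pool. At 4 dpp it had 779, 1303 and 1558 in the non-translating pool and 64.6, 203 and 1083 in the polysome pool. The pools were apart on every array at 1 dpp, and they overlapped at 4 dpp because polysome replicate 3 lay within the non-translating range. The ratio was -3.51 at 1 dpp, or 11.4-fold lower on polysomes, and -2.26 at 4 dpp, or 4.78-fold lower. The residual standard deviation (SD) over the 12 arrays was 1.18 on the log2 scale, the widest of the 8 brightest probe sets. The 4 dpp ratio was -3.33 without polysome replicate 3 and -1.31 without polysome replicate 1, so single arrays move it by more than 1.5 times. Polysome replicate 3 at 4 dpp is also the array with the lowest spike signal, 467, and the part of that in the Sp3 value was not tested.

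Tbx3 encodes a T-box transcription factor, known as a transcriptional repressor in limb, mammary gland and pluripotent cells. Its brightest probe set, 1437479_x_at, had signals of 429, 267 and 281 in the non-translating pool and 98.3, 89.3 and 70.0 in the polysome pool at 1 dpp. At 4 dpp the same probe set had 185, 361 and 160 in the non-translating pool and 31.2, 47.9 and 34.6 in the polysome pool. The pools did not overlap at either age, and the lowest non-translating array was brighter than every polysome array. The ratio was -1.89 at 1 dpp, or 3.71-fold lower on polysomes, and -2.53 at 4 dpp, or 5.78-fold lower.

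The other Tbx3 probe sets differed from the brightest one. Probe set 1448029_at had signals of 77.0, 68.1 and 64.4 in the non-translating pool and 88.0, 71.0 and 88.2 in the polysome pool at 1 dpp. At 4 dpp it had 45.8, 70.0 and 62.9 in the non-translating pool and 41.9, 53.4 and 46.9 in the polysome pool. Here the pools overlapped at both ages, with a ratio of 0.23 at 1 dpp and -0.31 at 4 dpp. Probe set 1439567_at, with signals from 14.6 to 34.7, had ratios of -0.15 and -0.55. Its pools overlapped at 1 dpp, and at 4 dpp the polysome pool was lower with no overlap. The remaining Tbx3 probe sets, 1445757_at and 1444594_at, lay below the filter, with ratios of -0.41 and -0.32 at 1 dpp and -0.31 and 0.04 at 4 dpp. The suffix _x_at marks a probe set with probes that are also found, or nearly found, in other transcripts, and which transcripts the bright Tbx3 probe set reads was not tested.

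**Figure D1:**
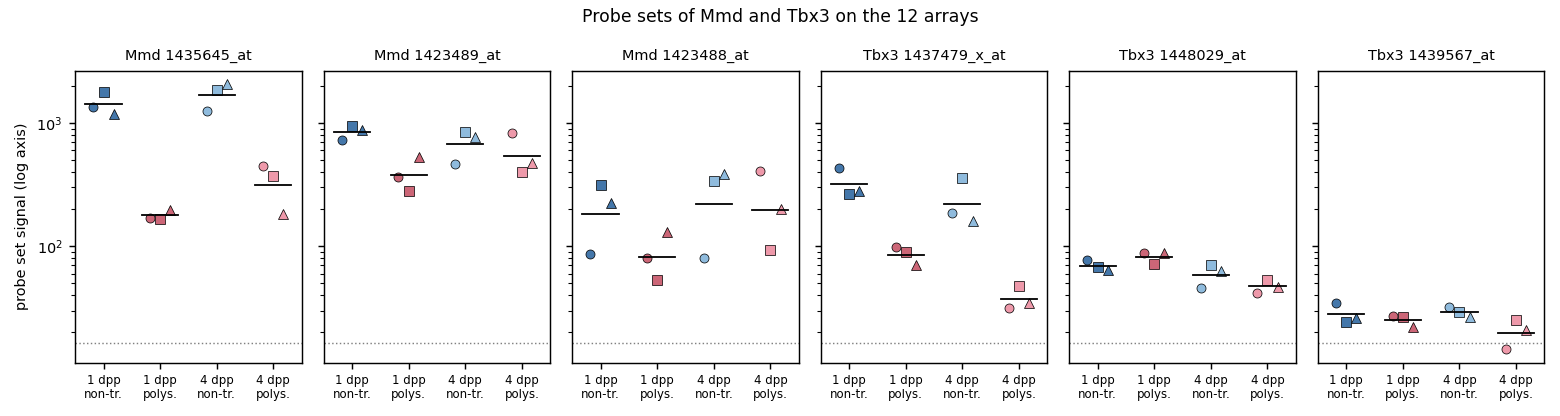
Signal of the probe sets of Mmd and Tbx3 that entered the tests, on a log axis, for the 3 arrays of each pool and age; each symbol is 1 array, the symbol shape is the replicate number, the horizontal bar is the mean of log2(signal + 1) and the dotted line is the filter at a signal of 16.4. Mmd 1435645_at and Tbx3 1437479_x_at are lower in the polysome pool on every array, while Mmd 1423488_at and Tbx3 1448029_at overlap between the pools at both ages.

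Nfkbiz encodes IκBζ, a nuclear member of the IκB family that acts with NF-κB on a set of inflammatory genes. Probe set 1417483_at had signals of 138, 192 and 74.9 in the non-translating pool and 13.6, 9.18 and 12.4 in the polysome pool at 1 dpp. Its signals at 4 dpp were 66.6, 192 and 126 in the non-translating pool and 31.1, 23.5 and 15.6 in the polysome pool. The pools were apart at both ages, and 4 of the 6 polysome arrays lay below the filter level. The ratio was -3.33 at 1 dpp, or 10.1-fold lower on polysomes, and -2.33 at 4 dpp, or 5.02-fold lower. With every value raised to the filter level first, an alternative chosen after seeing the data, the ratios were -2.87 and -2.31. With 64 added to each signal in place of 1 they were -1.35 and -1.09.

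Probe set 1448728_a_at of Nfkbiz was dim throughout, with signals from 12.3 to 22.7. Its pools overlapped at both ages, with ratios of -0.41 and -0.33. Probe set 1457404_at, below the filter with signals from 7.85 to 22.6, had ratios of -0.44 and -0.70. Its pools did not overlap at either age, with the polysome pool lower. Probe set 1448728_a_at thus lay close to the filter level of 16.4 in both pools, while 1457404_at lay below that level on 10 of the 12 arrays.

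Mmd encodes a membrane protein of the progestin and adipoQ receptor (PAQR) family, named for its rise as monocytes become macrophages. Probe set 1435645_at had signals of 1356, 1783 and 1186 in the non-translating pool and 171, 168 and 196 in the polysome pool at 1 dpp. The 4 dpp signals were 1260, 1845 and 2077 in the non-translating pool and 449, 373 and 182 in the polysome pool. The pools were far apart at both ages, with ratios of -2.99 at 1 dpp, or 7.95-fold lower on polysomes, and -2.43 at 4 dpp, or 5.40-fold lower.

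A second Mmd probe set, 1423489_at, was almost as bright, with a mean log2 signal of 9.19 against 9.24. It had signals of 723, 948 and 877 in the non-translating pool and 364, 279 and 531 in the polysome pool at 1 dpp. At 4 dpp it had 466, 844 and 764 in the non-translating pool and 831, 401 and 477 in the polysome pool. The pools did not overlap at 1 dpp, with a ratio of -1.16, and they overlapped at 4 dpp, with a ratio of -0.31. The third Mmd probe set, 1423488_at, was dimmer, with a mean log2 signal of 7.33, and had ratios of -1.14 and -0.15 with overlap at both ages. Its 4 dpp ratio was 0.39 without polysome replicate 2 and -1.23 without the 3 arrays of low spike signal, so it has no settled sign. For 1423489_at the 4 dpp ratio was -0.77 without those 3 arrays, which leaves 1 polysome array at that age, and ran from -0.61 without polysome replicate 1 to -0.09 without polysome replicate 2. Mmd is thus the gene in which 2 probe sets of like brightness differed, with a gap of -1.84 at 1 dpp and -2.13 at 4 dpp on the log2 scale.

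Ap3s1 encodes the small sigma subunit of the AP-3 adaptor complex, which sorts membrane proteins into lysosomes and related organelles. Its only probe set, 1422593_at, had signals of 3339, 6398 and 3953 in the non-translating pool and 444, 436 and 786 in the polysome pool at 1 dpp. At 4 dpp it had 3126, 7486 and 7977 in the non-translating pool and 1985, 1639 and 990 in the polysome pool. The pools were apart at both ages, with ratios of -3.04 at 1 dpp, or 8.21-fold lower on polysomes, and -1.95 at 4 dpp, or 3.87-fold lower. All 12 signals are far above the filter level.

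Bola3 encodes a mitochondrial protein that takes part in handing iron-sulphur clusters to their target enzymes. Probe set 1433970_at had signals of 1205, 2058 and 992 in the non-translating pool and 224, 187 and 143 in the polysome pool at 1 dpp. The signals at 4 dpp were 1580, 1899 and 2162 in the non-translating pool and 418, 563 and 171 in the polysome pool. The pools were apart at both ages, with ratios of -2.88 at 1 dpp, or 7.39-fold lower on polysomes, and -2.44 at 4 dpp, or 5.43-fold lower. Without the 3 arrays of low spike signal the 4 dpp ratio was -1.73. The other Bola3 probe sets were dim: 1458384_at had signals from 13.6 to 28.8 with ratios of -0.23 and -0.38, and 1445696_x_at lay below the filter on all 12 arrays. The 4 dpp ratio of 1458384_at turned to 0.057 without the 3 arrays of low spike signal and to 0.040 with low spike signal as a block in the fit.

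Clec2d encodes a C-type lectin-like membrane protein that is a ligand of the natural killer cell receptor NKR-P1. Its only probe set, 1419477_at, had signals of 184, 175 and 152 in the non-translating pool and 44.7, 36.3 and 28.6 in the polysome pool at 1 dpp. By 4 dpp the signals were 337, 226 and 90.6 in the non-translating pool and 23.9, 30.0 and 27.3 in the polysome pool. The pools were apart at both ages, with ratios of -2.21 at 1 dpp, or 4.62-fold lower on polysomes, and -2.78 at 4 dpp, or 6.85-fold lower. The 4 dpp ratio was -3.31 without non-translating replicate 3, the dimmest of that group. The macrophage marker Csf1r had group means from 470 to 813 and the lymphocyte marker Cd3e from 27.3 to 41.1, and the part of blood cells in the Clec2d signal was not tested.

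Klk1b5 encodes a serine protease of the mouse tissue kallikrein family, a large cluster of duplicated genes on chromosome 7. Because some copies are much alike, the upstream sequence of Klk1b5 is shown beside that of Klk1b4. Among the 25 kallikreins compared over 250 upstream bases, Klk1b4 was the closest relative, and 0 of 25 reached 90% identity. The Klk1b5 bases are those just before its annotated start, and the Klk1b4 bases are the upstream bases that align with them. Both are from RefSeq on GRCm38.p6, plus strand, at chr7:44216374-44216473 for Klk1b5 and chr7:44207331-44207426 for Klk1b4. Capitals mark the bases of Klk1b4 that differ from Klk1b5 in the alignment, and 4 bases of Klk1b5 have no partner in Klk1b4.
Klk1b5: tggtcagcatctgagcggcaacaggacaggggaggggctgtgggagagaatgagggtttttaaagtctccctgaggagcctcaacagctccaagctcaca
Klk1b4: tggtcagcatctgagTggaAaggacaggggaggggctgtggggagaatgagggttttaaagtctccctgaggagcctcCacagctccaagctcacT
Of 100 aligned positions, 92 were identical. Over the longer upstream window of 250 bases, Klk1b5 was 87.2% identical to Klk1b4, and over 25 kallikrein windows the identity ran from 39.3% to 87.2% with a median of 50.4%. For Sp3, Mmd, Bola3 and Clec2d the highest identity with a related gene was 50.6%. A promoter is not what a probe set reads, and whether the Klk1b5 probe sets also read other kallikrein mRNAs was not tested.

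The brightest Klk1b5 probe set, 1449313_at, had signals of 39.7, 21.4 and 47.0 in the non-translating pool and 8.76, 10.6 and 10.4 in the polysome pool at 1 dpp. Signals at 4 dpp were 36.1, 65.8 and 20.7 in the non-translating pool and 4.45, 6.54 and 6.18 in the polysome pool. The pools were apart at both ages, but all 6 polysome arrays lay below the filter level, and the mean log2 signal of 4.14 was just above the filter of 4.12. The ratio was -1.70 at 1 dpp, or 3.24-fold lower on polysomes, and -2.50 at 4 dpp, or 5.67-fold lower. With every value raised to the filter level first, these became -1.02 and -1.12, or 2.03-fold and 2.17-fold lower. The second Klk1b5 probe set, 1419010_x_at, lay below the filter on average, with ratios of -1.60 and -0.94 that became -0.41 and -0.06 once raised. Its pools were also apart at both ages, with every polysome array below the filter level. Of the 8 brightest probe sets only those of Klk1b5 and Nfkbiz had arrays below that level, and the Klk1b5 ratios moved more.

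**Figure D2:**
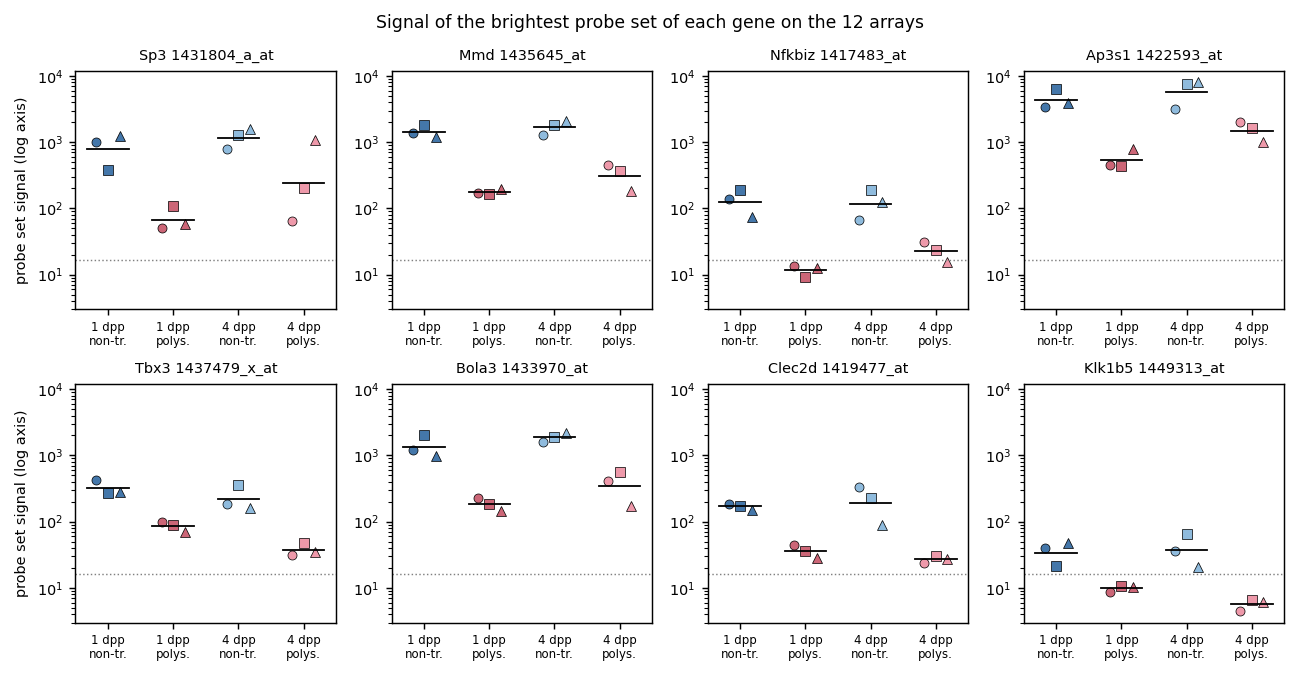
Signal of the brightest probe set of each of the 8 genes on the 12 arrays, on a log axis, by age and pool; each symbol is 1 array, the shape is the replicate number, the horizontal bar is the mean of log2(signal + 1) and the dotted line is the filter at a signal of 16.4. Only Sp3 at 4 dpp has a polysome array within the range of the non-translating arrays, and only Nfkbiz and Klk1b5 have polysome arrays under the dotted line.

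Over the 14 tested probe sets of the 8 genes, 9 were lower on every polysome array than on every non-translating array at 1 dpp and 8 at 4 dpp. Over all 27022 probe sets tested, 17.3% did so at 1 dpp and 11.9% at 4 dpp. At both ages the pools were apart in this direction for 7 member probe sets, the brightest of each gene except Sp3, against 6.81% of all probe sets. Because the ratio chose the genes, these counts are not support for it. All 8 brightest probe sets had a ratio at or below -1 at both ages, whereas 0 of the other 6 tested member probe sets did, against 3.12% of all probe sets tested. Those other 6 probe sets belong to Mmd, Nfkbiz, Tbx3 and Bola3, and among them the ratio at 1 dpp ran from -1.16 to 0.23.

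The disagreement between probe sets was set against that of all genes. The gap between the brightest and the second brightest probe set was -1.84 at 1 dpp and -2.13 at 4 dpp for Mmd, -2.92 and -2.00 for Nfkbiz, -2.12 and -2.22 for Tbx3, and -2.66 and -2.07 for Bola3. Among 5950 other genes with several tested probe sets the median absolute gap was 0.50 at either age, and the 90th percentile was 1.49 at 1 dpp and 1.51 at 4 dpp. The Mmd gap was larger than that of 94.2% of these genes at 1 dpp and 96.8% at 4 dpp. For Nfkbiz these shares were 99.1% and 96.1%, for Tbx3 96.3% and 97.3%, and for Bola3 98.4% and 96.4%. Genes picked for an extreme ratio on the brightest probe set will tend to have a large gap, so this is a description of the 4 genes.

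Brightness differed between the probe sets as well. The second probe set was 0.05 dimmer on the log2 scale for Mmd, 0.95 for Tbx3, 1.37 for Nfkbiz and 4.95 for Bola3. For Nfkbiz and Bola3 the second probe set was thus near the filter, and for Mmd and Tbx3 it was well above it. The same was counted in the other genes, leaving out the members. At 1 dpp, 52 other genes with several probe sets had a ratio at or below -2 on the brightest. In 29 of them (55.8%) every other tested probe set was above -1, while 9 had another at or below -2. At 4 dpp there were 10 such genes, of which 5 had every other probe set above -1 and 0 had another at or below -2. Where the second probe set was within 1 log2 unit of the brightest, it was above -1 in 9 of 19 genes at 1 dpp and in 1 of 2 at 4 dpp. Which part of each transcript a probe set reads was not used here, so different transcript ends, retained sequence and off-target probes cannot be told apart.

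**Figure D3:**
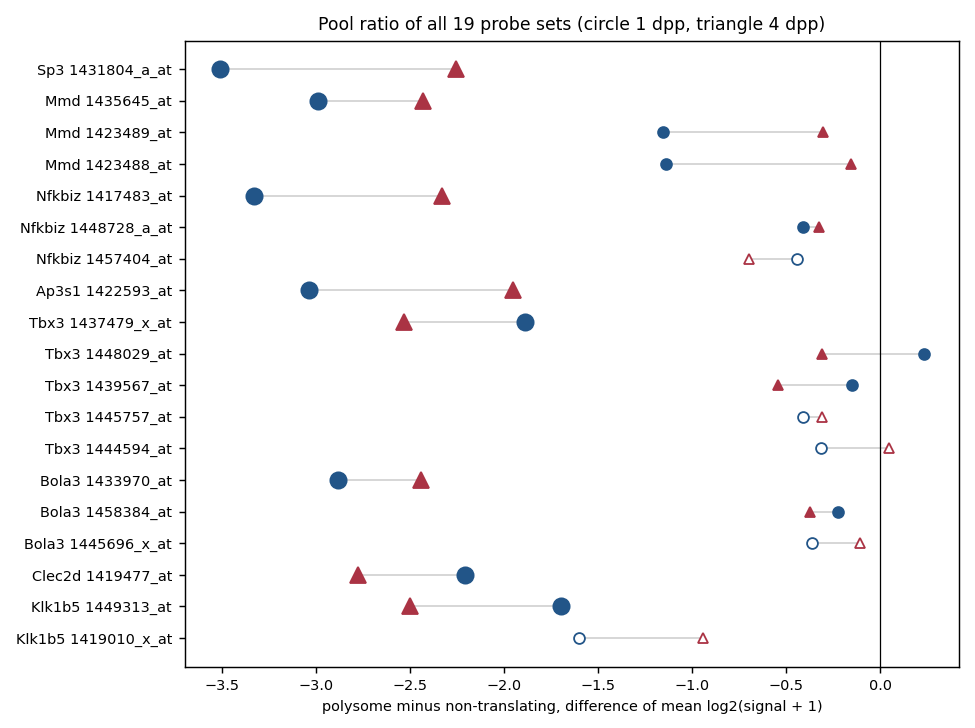
Polysome minus non-translating difference of mean log2(signal + 1) for all 19 probe sets of the 8 genes, with 1 dpp as circles and 4 dpp as triangles. The brightest probe set of each gene lies between -3.51 and -1.70, and the other probe sets of Mmd, Nfkbiz, Tbx3 and Bola3 lie between -1.16 and 0.23.

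The level over both pools together did not enter the choice of the genes, so it could be tested between ages. The age effect is the mean of both pools at 4 dpp minus that at 1 dpp, tested with limma over all 27022 probe sets on 12 arrays. None of the 14 member probe sets passed an adjusted p of 0.05 (0 of 14), against 2.81% of all probe sets tested. At an unadjusted p under 0.05 there were 5 of 14, against 22.1% of all probe sets. Those 5 are Ap3s1, Bola3, Mmd 1435645_at, and Tbx3 1437479_x_at and 1448029_at.

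The summed signal of the 7 germ cell markers ran from 1297 to 3333 on the 1 dpp arrays and from 2269 to 6191 on the 4 dpp arrays, ranges that overlap. Their median age effect was 0.75, with 1.78 for Dazl (adjusted p = 0.12), 1.48 for Mael (adjusted p = 0.11) and -0.43 for Zbtb16 (adjusted p = 0.38), and 0 of the 7 passed the adjusted threshold. Of the markers of other cell types only Myh11, of smooth muscle and peritubular cells, passed it, with 1.05 (adjusted p = 0.044). The part of these cells in the age effects of members and related genes was not tested.

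The highest age effects were those of Sp3 and Ap3s1. Sp3 had 1.20 ± 0.57 (SE, n = 12), with an adjusted p of 0.24. It was 0.67 without 4 dpp polysome replicate 3 and 1.68 without 4 dpp polysome replicate 1, so its place above Ap3s1 rests on 1 array. Ap3s1 had 0.92 ± 0.29 (adjusted p = 0.094), with a 95% interval of 0.30 to 1.55. Bola3 had 0.69 ± 0.29 (adjusted p = 0.19) and the bright Mmd probe set 0.53 ± 0.24 (adjusted p = 0.21). Nfkbiz 1417483_at had 0.40 ± 0.30, Clec2d -0.12 ± 0.27 and Klk1b5 -0.30 ± 0.26, each with an adjusted p of 0.46 or more. The Klk1b5 value rests on polysome signals below the filter level, and it was 0.049 with every value raised to that level. The Clec2d value was 0.15 without 4 dpp non-translating replicate 3, so neither has a settled sign.

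Tbx3 was the member with the lowest age effect, and its probe sets that disagreed on the ratio shared that sign. Probe set 1437479_x_at had -0.85 ± 0.24 (adjusted p = 0.071, 95% interval -1.36 to -0.34) and 1448029_at had -0.51 ± 0.16 (adjusted p = 0.089, 95% interval -0.86 to -0.17). The third tested Tbx3 probe set, 1439567_at, had -0.14 ± 0.16 (adjusted p = 0.64). Leaving out 1 array took some of these across the threshold. Without 1 dpp polysome replicate 3 the age effect was -0.92 for Tbx3 1437479_x_at (adjusted p = 0.045) and 1.06 for Ap3s1 (adjusted p = 0.044). Without 4 dpp polysome replicate 2 it was -0.94 for Tbx3 1437479_x_at (adjusted p = 0.025) and -0.56 for 1448029_at (adjusted p = 0.039). With low spike signal as a block it was -0.77 for 1437479_x_at (adjusted p = 0.043). In these 3 settings calls rose over the whole array too, from 758 of 27022 probe sets in the main fit. They numbered 2495 without 1 dpp polysome replicate 3, 4570 without 4 dpp polysome replicate 2 and 2587 with the spike block. The crossings are thus not particular to Tbx3 and Ap3s1.

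**Figure D4:**
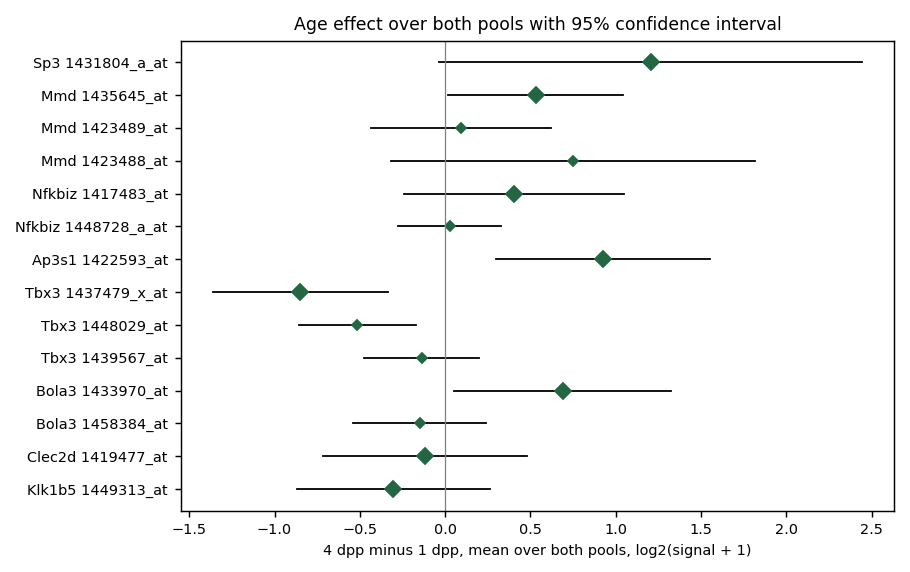
Age effect, the mean of both pools at 4 dpp minus that at 1 dpp on the log2(signal + 1) scale, for the 14 tested probe sets of the 8 genes, with 95% confidence intervals from the limma fit. No probe set passed an adjusted p of 0.05. Before adjustment the intervals of Ap3s1, Bola3 1433970_at and Mmd 1435645_at lie above 0 and those of Tbx3 1437479_x_at and 1448029_at below 0.

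By pool, the differences between ages share arrays with the ratio and are given without a test. In the polysome pool the 4 dpp mean minus the 1 dpp mean was 1.83 for Sp3, 1.47 for Ap3s1, 0.91 for Bola3, 0.90 for Nfkbiz and 0.81 for Mmd 1435645_at. It was -0.40 for Clec2d, -0.71 for Klk1b5 and -1.17 for Tbx3 1437479_x_at. The Sp3 value was 0.75 without 4 dpp polysome replicate 3, the array of lowest spike signal, and 2.78 without 4 dpp polysome replicate 1. For Bola3 it was 1.41 without 4 dpp polysome replicate 3 and 0.55 without 4 dpp polysome replicate 2. The Klk1b5 value compares signals that all lie below the filter level, and with every value raised to that level it is 0 for Klk1b5 and 0.46 for Nfkbiz. In the non-translating pool the differences ran from -0.53 for Tbx3 to 0.58 for Sp3. The 5 genes with a higher polysome mean at 4 dpp are those whose ratio lay nearer to 0 at 4 dpp than at 1 dpp.

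The 8 genes belong to different families, and each was set beside related genes from a list of its family, complex or pathway. A related gene was called when its limma adjusted p was under 0.05, on its brightest probe set. Among 13752 genes, 7.19% were called lower and 10.7% higher on polysomes at 1 dpp, and 3.66% lower and 6.88% higher at 4 dpp. Of 139 listed genes, 115 had a probe set and 78 entered the tests, of which 5 were lower and 11 higher at 1 dpp, and 1 lower and 3 higher at 4 dpp. The median ratio of the 78 was 0.01 at 1 dpp and 0.08 at 4 dpp, against 0.02 and 0.02 for all genes. The 16 calls at 1 dpp included 6 that held when any single array was left out, and the other 10 were lost without at least 1 array, with adjusted p values up to 0.16. All 4 calls at 4 dpp were lost without at least 1 array.

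Sp1, the factor after which the Sp family is named, had mean signals of 1043 in the non-translating pool and 2555 in the polysome pool at 1 dpp. Its ratio of 1.28 ± 0.21 (SE, n = 12) had an adjusted p of 0.0021 and held without each array. Sp1 and Sp3 thus lay on opposite sides of 0 at 1 dpp, and at 4 dpp Sp1 had 0.61 ± 0.21 (adjusted p = 0.077). Of the 20 Sp and Krüppel-like factor genes tested, 3 were higher at 1 dpp (Sp1, Klf13 with 0.82 and Klf7 with 1.01) and 0 lower, and 0 were called at 4 dpp, where the brightest after Sp1, Klf9, had -0.04. The Klf13 call was lost without any of 5 single arrays and that of Klf7 without any of 7, with the highest adjusted p, 0.087 and 0.13, without 1 dpp polysome replicate 1. Quantile normalization and trimmed-mean scaling also ended the Klf7 call.

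Tbx2, a T-box repressor closely related to Tbx3, had mean signals of 232 and 575 in the non-translating and polysome pools at 1 dpp. Its ratio was 1.27 ± 0.28 (adjusted p = 0.0089) at 1 dpp, the only call among 6 T-box genes tested, and it held without each array. At 4 dpp 0 of the 6 were called, with 0.63 for Tbx2 and -0.38 for Mga. Over both pools Tbx2 was lower at 4 dpp, by -1.20 on the log2 scale (adjusted p = 0.020), the same direction as Tbx3. That call was lost without any of 7 single arrays, with an adjusted p of up to 0.075 without 1 dpp polysome replicate 1, when the values ran from -1.33 to -1.12.

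Rela, the NF-κB subunit p65, had mean signals of 320 and 693 at 1 dpp and a ratio of 1.11 ± 0.19 (adjusted p = 0.0027), which held without each array. Of 10 genes for NF-κB subunits and their regulators, 3 were higher at 1 dpp (Rela, Relb with 1.00 and Bcl3 with 0.83) and 0 lower. Tnfaip3, a negative regulator of the pathway named after its value was seen, had a ratio of -0.28 at 1 dpp and -0.50 at 4 dpp and was not called (adjusted p = 0.64 and 0.39). Relb lost its call without 3 of the 12 single arrays and Bcl3 without 8, with adjusted p values of 0.072 without 1 dpp non-translating replicate 3 and 0.16 without 1 dpp polysome replicate 1. At 4 dpp 0 of the 10 were called, with 0.35 for Nfkbia, the brightest, and 0.46 for Rela.

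Among 8 PAQR family genes, Mmd2, the paralog of Mmd, had mean signals of 1293 and 3049 at 1 dpp and a ratio of 1.23 ± 0.24 (adjusted p = 0.0051) that held without each array. Paqr7 and Paqr8, membrane progestin receptor genes, were also called higher, with 0.87 and 1.29. The 1 gene called lower, the adiponectin receptor gene Adipor1, named after its value was seen, had -1.13 ± 0.35 (adjusted p = 0.042). These calls were lost without 4 single arrays for Paqr7, 8 for Paqr8 and 5 for Adipor1, and quantile normalization and trimmed-mean scaling ended that of Paqr7. Without 1 dpp polysome replicate 1 the adjusted p was 0.12 for Paqr7 and 0.15 for Adipor1, and without 1 dpp non-translating replicate 3 it was 0.11 for Paqr8. At 4 dpp 0 of the 8 were called, with 0.78 for Mmd2 and -0.74 for Adipor1.

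For Ap3s1 the comparison is with other adaptor subunits. At 1 dpp 0 of the 12 tested were called, with -0.06 for Ap2s1 and -0.54 for Ap1s2, the brightest. The 6 other subunits of the AP-3 complex had ratios from -0.46 to 0.63 at 1 dpp and from -0.29 to 0.46 at 4 dpp, against -3.04 and -1.95 for Ap3s1. At 4 dpp Ap2s1, the sigma subunit of the clathrin adaptor AP-2, was higher on polysomes, with 1.39 ± 0.29 (adjusted p = 0.013). That call was lost without 4 dpp non-translating replicate 3 (adjusted p = 0.054) and in a fit to only the 6 arrays compared.

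The Bola3 list, mitochondrial iron-sulphur cluster assembly, was the only one with several genes called lower. Of 15 genes tested, 3 were lower at 1 dpp (Hscb, Lyrm4 and Isca2) and 1 higher (Iba57). Hscb, a co-chaperone of cluster transfer, had mean signals of 158 in the non-translating pool and 43.4 in the polysome pool, a ratio of -1.86 ± 0.30 (adjusted p = 0.0021) that held without each array. Lyrm4, a partner of the cysteine desulphurase, had -1.31 (adjusted p = 0.025), and Isca2, named after its value was seen, had -1.36 (adjusted p = 0.030). Each was lost without any of 4 single arrays, with adjusted p values up to 0.11 without 1 dpp polysome replicate 1 and 0.12 without 1 dpp non-translating replicate 2. Iba57 had 1.13 ± 0.22 (adjusted p = 0.0052) and held without each array.

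At 4 dpp 0 of these 15 were lower, and Nubpl with 1.50 and Iba57 with 0.75 were higher (adjusted p of 0.035 and 0.047). The Iba57 call was lost without 11 of the 12 single arrays, with an adjusted p of up to 0.13 without 4 dpp non-translating replicate 2, and in 7 of 13 other settings, quantile normalization and trimmed-mean scaling among them. That of Nubpl was lost without 8 of the 12 single arrays, with an adjusted p of up to 0.12 without 4 dpp polysome replicate 3, and in 3 other settings. Hscb had -0.49 ± 0.30 at 4 dpp (adjusted p = 0.31), and over both pools it was higher at 4 dpp, by 1.27 (adjusted p = 0.021), a call lost without any of 7 single arrays (adjusted p up to 0.075 without 1 dpp polysome replicate 1). The difference of its ratio between ages was not tested.

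The lists of the remaining members were thin. Of the C-type lectin genes listed for Clec2d only Clec2e and Clec2l entered the tests, and neither was called. Their ratios were 0.18 and -0.18 at 1 dpp and -0.04 and -0.26 at 4 dpp. On chromosome 6 the promoter window of Clec2e starts at 129100854 and that of Clec2l at 38662819. Clec2l thus lies outside the natural killer gene complex, to which Clec2e belongs. Of 5 tissue kallikreins tested, Klk8 was called lower at 1 dpp, with -0.87 ± 0.23 (adjusted p = 0.022), and Klk1b21 at 4 dpp, with -0.76 ± 0.20 (adjusted p = 0.032). Klk1b21 had mean signals of 37.3 in the non-translating pool and 21.4 in the polysome pool at 4 dpp, near the filter as Klk1b5 was. Each call was lost without any of 4 single arrays, with the highest adjusted p 0.084 for Klk8 without 1 dpp non-translating replicate 3 and 0.12 for Klk1b21 without 4 dpp non-translating replicate 2. Klk1b21 also lost its call with no filter, with low spike signal as a block and with only the 6 arrays compared.

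**Figure D5:**
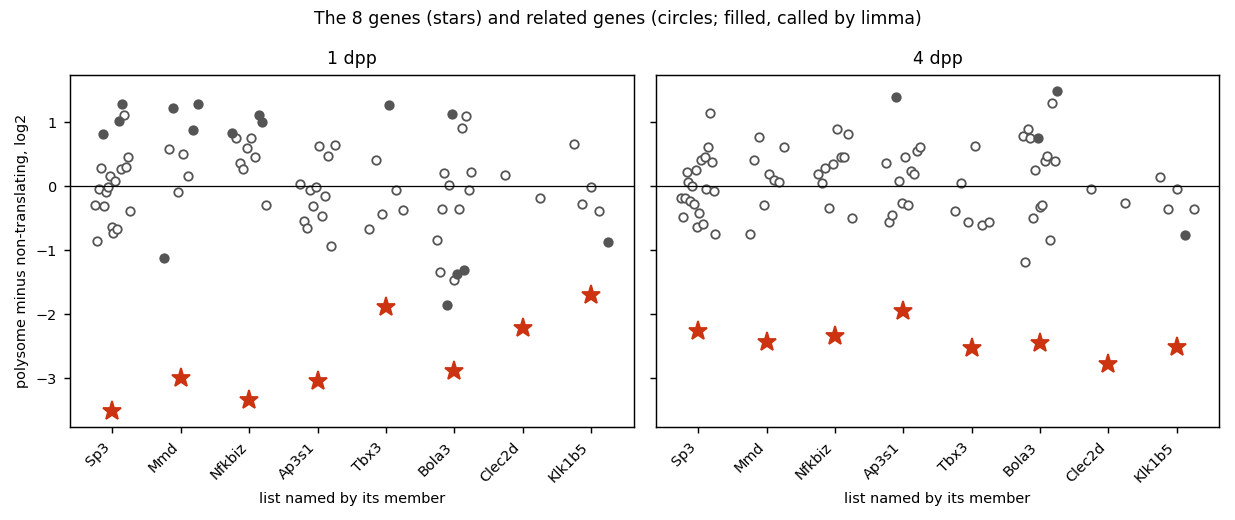
Polysome minus non-translating difference of mean log2(signal + 1) at 1 dpp and 4 dpp for the 8 genes (stars) and for the tested genes of each family list (circles, filled where the limma adjusted p was under 0.05), with lists named by their member along the axis. Each star lies below every circle of its list at both ages, as follows from the choice of the 8 genes, and the filled circles lie mostly above 0.

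The genes whose levels followed each member most closely over the 12 arrays were found by Pearson correlation on the log2 scale. Each member was read on its brightest probe set alone, so a partner belongs to that probe set and not to the gene's others. All the arrays share the pools that chose the members, so these are descriptions with no test. Mmd was followed by Vcpkmt (r = 0.996) and Pnrc2 (r = 0.993), and Bola3 by Snhg6 (r = 0.993) and Gm11517 (r = 0.984). Snhg6, a host gene of a small nucleolar RNA, had ratios of -3.01 at 1 dpp and -2.41 at 4 dpp, close to the -2.88 and -2.44 of Bola3. Nfkbiz was followed by Yaf2 (r = 0.986) and Gemin7 (r = 0.982), and Ap3s1 by Lipo3 (r = 0.989) and Zfp931 (r = 0.987).

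The other members had looser partners. Tbx3 was followed by Hoxc4 (r = 0.970) and Tspan13 (r = 0.968), and Clec2d by Actn1 (r = 0.975) and Notch3 (r = 0.966). Hoxc4 had ratios of -1.39 and -1.83, lower at 4 dpp as for Tbx3. Klk1b5 was followed by B930059L03Rik (r = 0.957) and Ngb (r = 0.940), and Sp3 by Cadps (r = 0.922) and Ctag2 (r = 0.902). The Sp3 partners had ratios of -0.56 and -0.71 at 1 dpp, far smaller in size than the -3.51 of Sp3.

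Growth-controlled mRNAs of ribosomal proteins begin with a C and a run of pyrimidines, so the annotated starts of the members were read for a C followed by 4 bases of C or T, on the gene's strand. RefSeq promoter windows on GRCm38.p6 were matched for 5 of the 8 genes (Sp3, Mmd, Bola3, Clec2d and Klk1b5), 8 windows in all. Of the 8 windows, 1 began in this way, 1 of the 2 of Sp3, against 823 of 32851 windows (2.51%). By gene it was 1 of the 5, against 813 of 27025 genes with a window (3.01%). A single window is too few to compare these shares. An annotated start need not be the start used in the testis, and Nfkbiz, Ap3s1 and Tbx3 were not read.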

How the data were processed

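Signal was measured on 12 arrays, 3 for each pool and age. The deposited values are probe set intensities on a linear scale, one series-wide table, and the submitters' processing notes name MAS5, Affymetrix's algorithm for combining probe brightness, whose version and scaling are not given in the sources used here. Log2(value + 1) was used, a scale that shrinks the differences of dim probe sets. Of 45101 probe sets, 64 controls were left out, and 27022 at or above the 40th percentile of mean log2 signal were tested. All 4 groups entered a joint fit in limma 3.58.1 (R 4.3.3), by lmFit and then eBayes using the trend on mean signal, with two-sided p-values adjusted by the Benjamini-Hochberg method, and the script was tested on simulated data. Probe sets were named by the platform annotation, only where it gives 1 symbol. The members and lists were chosen with earlier results of these data known. Named genes are all members, up to 3 called genes of each family list with the smallest p per comparison (the 2 brightest where none was called), the 2 genes most correlated with each member, and single markers as examples. Deviations of same-numbered arrays of an age had correlations from -0.58 to 0.57. Whether the numbers pair the samples cannot be settled from 3 arrays per group, and the main fit took them as unpaired. Alternatives changed the scaling, pseudocount, filter, probe set rule, trend, blocks and arrays. The number of arrays limits the precision. Where a probe set sits in its transcript was not used.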

Additional observations from a re-analysis of the deposited data

How the results depend on the processing

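The ratios of the 8 brightest probe sets were below 0 in all 414 values over the settings run, the nearest to 0 being -0.43 for Klk1b5 with a pseudocount of 64. The settings use the same arrays on which the ratio chose the genes, so this is a description and not support. Among the other 6 tested member probe sets, the 4 dpp ratio of Bola3 1458384_at changed sign by more than the replicate SD, to 0.040 with low spike signal as a block and to 0.057 without the 3 arrays of low spike signal, an alternative chosen after seeing the data. Sign changes within the replicate SD came from leaving out single arrays, for Mmd 1423488_at at 4 dpp (up to 0.39) and Tbx3 1439567_at at 1 dpp (up to 0.00023). The number of probe sets with a called age effect was 758. It was 1239 after quantile normalization, 1256 scaled to the trimmed mean, 333 with no filter, 2587 with low spike signal as a block and 41 without those 3 arrays. It ran from 3 without 1 dpp polysome replicate 1 to 4570 without 4 dpp polysome replicate 2. Called ratios at 1 dpp numbered 4767, against 2621 with 1 probe set per gene, fewer being tested, 8409 with the spike block, 7376 without those 3 arrays, and 2417 (without 1 dpp polysome replicate 1) to 6234 (without 4 dpp polysome replicate 2). Called ratios at 4 dpp numbered 2981, against 1533 with 1 probe set per gene, 4894 with the spike block, 230 with only the 6 arrays compared, and 953 (without 4 dpp non-translating replicate 2) to 5430 (without 4 dpp polysome replicate 2). The cause of the other shifts was not tested. With the replicate block the 3 counts were 599, 4896 and 3209, and whether the numbers mark pairs is not known. At 4 dpp 68.2% of calls were higher on polysomes, 52.8% after quantile normalization and 54.0% scaled to the trimmed mean, which moved the median of all ratios to -0.13. Depth is not defined for these arrays, and signals near the filter limit Klk1b5, Nfkbiz and the second Bola3 probe set.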
